A study of Rattus norvegicus with 8 samples.

Results

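The genes described here are the 3 HIF alpha subunits, Hif1a, Epas1 and Hif3a, and 7 genes known to be induced in low oxygen, namely Vegfa, Slc2a1, Car9, Egln3, Adm, Pdk1 and Bnip3. They were found by symbol, and all 10 were present among the 37209 genes of the count table. The set was chosen by measured values in part, namely the fold changes between injured and control arteries, among which that of Hif3a was one of the largest falls, and for these 10 genes that comparison is given as a description with no test. Other genes of the pathway, which are not in the set, were tested. Their lists were likewise drawn up with earlier results of these data known. mRNA was sequenced from 4 injured and 4 undamaged carotid arteries of male Sprague-Dawley rats (400 g on average), all harvested 2 weeks after the operation. The injured vessel was the left carotid artery, denuded with a balloon dilatation catheter, and the control vessel was the right carotid artery, which had no balloon and was taken as the self-control. Injured and control arteries therefore came from the same animals and are not 8 independent vessels, but the labels do not say which replicate numbers belong to the same rat. Injury and side of the neck cannot be told apart in this design, and no sham-operated left artery was analysed here. Whole arteries were used, so fewer cells of a type and less RNA per cell cannot be told apart either.

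HIF, the hypoxia-inducible factor, is a dimer of an oxygen-regulated alpha subunit with the stable partner Arnt. In the presence of oxygen, prolyl hydroxylases of the Egln family mark the alpha subunits for Vhl, which sends them to degradation. In low oxygen the dimer accumulates and binds a short core sequence, ACGTG or GCGTG, near its target genes. Because this control acts on the protein, the mRNA of an alpha subunit is not a measure of HIF activity. Hif1a is expressed in most cells, Epas1, which encodes HIF-2 alpha, is prominent in endothelium, and some products of Hif3a inhibit the other subunits.

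The start regions of the genes are shown because the HIF core sequence is what links the target genes to the factor. RefSeq promoter windows of the GRCr8 assembly, from 250 bases before to 50 bases after the gene start, were found for all 10 genes. Hif3a and Vegfa had 2 windows each, which made 12 windows. ACGTG or GCGTG, read on both strands, was present in 6 of the 12 windows. These belonged to 6 of the 10 genes, namely Hif1a, Hif3a, Slc2a1, Car9, Pdk1 and Bnip3. Of all 33469 RefSeq windows of 300 bases, 41.6% held at least 1 of these 2 sequences, 19.3% held ACGTG and 29.7% held GCGTG. The longer run CACGTG, which reads the same on both strands, counts as 2 matches of ACGTG. A match is only a run of letters and does not show that HIF binds there, and a window without one says nothing of sites elsewhere in the gene. The windows of Hif3a, the gene with the largest fold change of the set, of Car9, the gene with the highest ratio, and of Bnip3, which held 4 matches, are printed 5′ to 3′ on the strand of the gene, with the matches in capitals. That of Hif3a is at chr1:86877789-86878088 on the minus strand, that of Car9 at chr5:62558774-62559073 on the plus strand and that of Bnip3 at chr1:203154913-203155212 on the minus strand.
Hif3a: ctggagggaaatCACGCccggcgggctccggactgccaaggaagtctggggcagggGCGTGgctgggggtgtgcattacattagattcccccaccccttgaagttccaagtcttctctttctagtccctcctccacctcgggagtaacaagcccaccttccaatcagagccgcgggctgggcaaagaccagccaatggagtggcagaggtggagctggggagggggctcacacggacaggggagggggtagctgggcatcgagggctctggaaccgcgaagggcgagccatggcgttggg
Car9: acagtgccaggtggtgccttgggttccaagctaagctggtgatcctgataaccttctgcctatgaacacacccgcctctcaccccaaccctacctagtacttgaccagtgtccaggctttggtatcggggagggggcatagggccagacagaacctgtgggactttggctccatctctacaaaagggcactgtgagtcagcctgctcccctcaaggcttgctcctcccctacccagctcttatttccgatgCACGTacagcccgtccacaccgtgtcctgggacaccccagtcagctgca
Bnip3: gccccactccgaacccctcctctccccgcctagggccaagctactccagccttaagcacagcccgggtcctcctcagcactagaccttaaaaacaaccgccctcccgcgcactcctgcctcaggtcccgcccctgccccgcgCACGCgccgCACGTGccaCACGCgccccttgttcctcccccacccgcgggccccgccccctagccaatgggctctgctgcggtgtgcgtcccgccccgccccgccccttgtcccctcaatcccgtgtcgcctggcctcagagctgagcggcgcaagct

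In the Car9 window the match on the opposite strand began at base 2 of the gene. In Bnip3 the first bases of the 4 matches lay close together, from 108 to 90 bases before the start. The second Hif3a window, which belongs to a more downstream start, held neither sequence. Egln3, Adm, Epas1 and both Vegfa windows also held neither. The core sequence was thus present in genes whose mRNA was higher after injury, Hif1a and Car9, and in genes whose mRNA was lower, Hif3a, Pdk1 and Bnip3.

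The total count per artery lay between 11459632 and 16658089. Levels are given as CPM, read counts relative to library size after scaling by the TMM factors of edgeR, and are compared only between arteries for the same gene, never between genes, because no transcript lengths were used. A count of 3, taken as the floor of a library, was 0.168 to 0.246 CPM and covers counting error only. A note on RNA extraction in the labels speaks of brain tissue, whereas the 8 smooth muscle markers summed to 17429 to 50551 CPM in the controls and 10558 to 16609 CPM after injury. The 7 neuron markers, among them tyrosine hydroxylase (Th) and Dbh of sympathetic neurons, summed to 1.80 to 4.23 CPM in controls 1 to 3, but to 8206 CPM in control artery 4, 1761 CPM in injured artery 3 and 120 CPM in injured artery 1. Control artery 4 and injured artery 3 therefore stand apart, and results that rest on them are given with and without them. Of 581 protein-coding genes that GRCr8 places on chromosome X, 13 had any count, against 85.1% to 95.6% of the genes on each autosome, so X-linked genes could not be assessed. None of the 10 genes is X-linked.

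**Figure D1:**
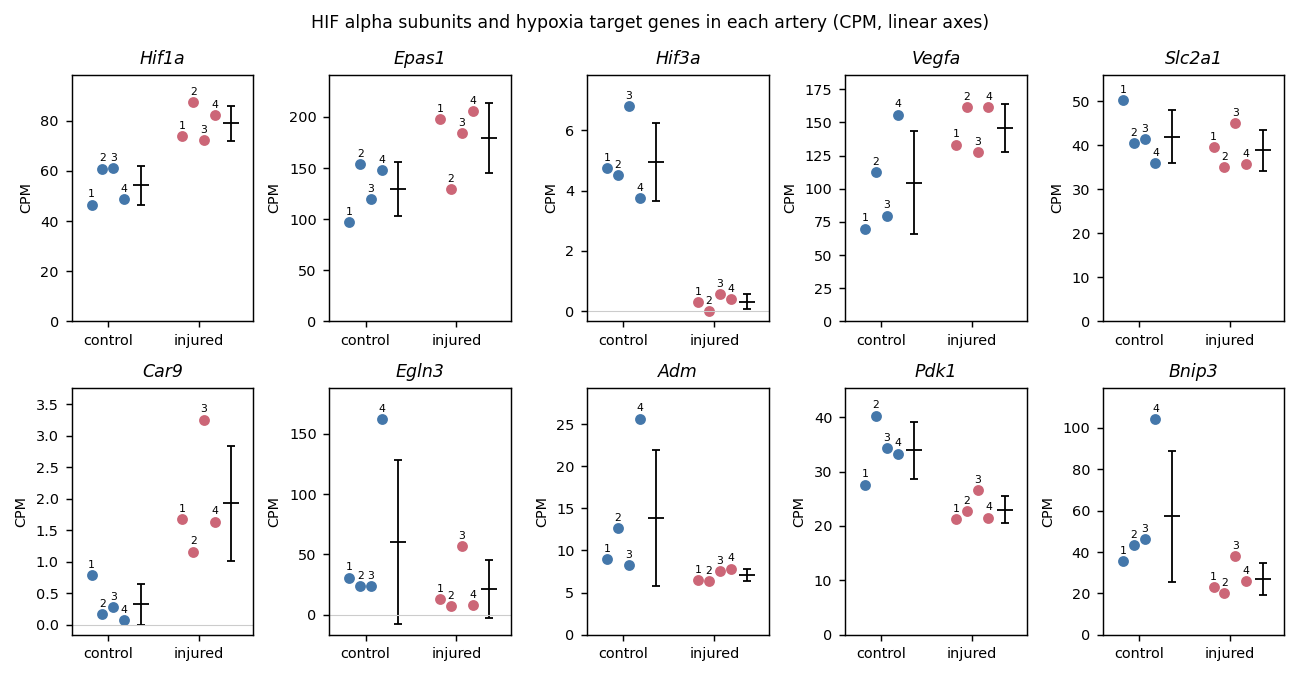
CPM of each of the 10 genes on linear axes, with control arteries in blue and injured arteries in red. Numbers are replicate numbers, and the bar at the right of each group is the mean with the SD of 4 arteries. Hif3a separates the groups most clearly, and control artery 4 stands far above the other controls for Egln3 and Bnip3.

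The 3 alpha subunits did not move together. Hif3a was at 4.75, 4.51, 6.79 and 3.75 CPM in control arteries 1 to 4 and at 0.299, 0, 0.562 and 0.409 CPM in injured arteries 1 to 4. These CPM come from 54 to 98 counts per control library and from 0 to 10 counts per injured library, and the 0 counts in injured artery 2 allow a level of up to 0.218 CPM. Every injured artery thus lay far below every control, and the 4 controls ranged from 3.75 to 6.79 CPM. The mean was 4.95 ± 1.30 CPM (SD, n = 4) in the controls and 0.317 ± 0.237 CPM (SD, n = 4) after injury. The log2 ratio of injured to control arteries (the log2 fold change of the plots), fitted with edgeR, was -3.91 (standard error 0.65). It lay between -4.35 and -3.52 when each artery was left out in turn. Smooth muscle markers moved in the same direction, with 0 of 8 higher after injury. Their sum was also below that of every control in all 4 injured arteries. It was 50551, 43378, 37308.5 and 17429 CPM in controls 1 to 4 and 16609, 14211, 10558 and 13336 CPM in injured arteries 1 to 4. Of the 8 adipocyte markers, 2 were higher and 6 lower after injury, and none was called. They summed to 127, 1039, 394 and 969 CPM in controls 1 to 4 and to 394, 233, 481 and 474 CPM in injured arteries 1 to 4, so the groups overlapped. The part of either cell type in the Hif3a values was not tested.

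Hif1a was higher after injury in every artery. It was at 46.6, 60.9, 61.2 and 48.6 CPM in controls 1 to 4 and at 73.9, 87.4, 72.2 and 82.1 CPM in injured arteries 1 to 4. The groups did not overlap. The mean was 54.3 ± 7.80 CPM in the controls and 78.9 ± 7.14 CPM after injury (SD, n = 4 each), which is 1.45-fold higher and a log2 ratio of 0.54 (standard error 0.13). Macrophage, skeletal muscle and cartilage markers moved in the same direction, with 8 of 8, 8 of 8 and 5 of 5 higher. Macrophage markers summed to 165 to 261 CPM in the controls and 1611 to 2479 CPM after injury. The sums were 84.3 to 253 and 295 to 1054 CPM for skeletal muscle, and 12.1 to 21.5 and 120 to 401 CPM for cartilage. The part of these cell types in the Hif1a values was not tested.

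Epas1 was at 97.5, 154, 120 and 148 CPM in controls 1 to 4 and at 198, 130, 184 and 206 CPM in injured arteries 1 to 4. Injured artery 2 lay among the controls, so the groups overlapped. Its log2 ratio was 0.47 (standard error 0.20). The 10 endothelial markers summed to 978 to 2540 CPM in the controls and 938 to 1333 CPM after injury, and these ranges overlapped as well. Hif1a and Epas1 were thus higher by similar factors of 1.45 and 1.38, whereas Hif3a was lower.

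Vegfa and Adm encode secreted peptides that act on endothelium. Vegfa, the main growth factor of new vessels, was at 69.9, 112, 79.8 and 156 CPM in controls 1 to 4 and at 133, 162, 128 and 162 CPM in injured arteries 1 to 4. Only control artery 4 reached the injured range. The log2 ratio was 0.48 (standard error 0.25) with all arteries and 0.74 without control artery 4, where the groups no longer overlapped. Adm, the vasodilator adrenomedullin, was at 8.93, 12.6, 8.25 and 25.6 CPM in controls 1 to 4 and at 6.52, 6.38, 7.53 and 7.85 CPM in injured arteries 1 to 4. All injured arteries lay below all controls, but the nearest values of the groups were 7.85 and 8.25 CPM. For Adm the log2 ratio was -0.97 (standard error 0.37), and it was -0.49 without control artery 4. The ligand Vegfa was therefore higher and the ligand Adm lower.

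Slc2a1, Pdk1, Car9 and Bnip3 adapt metabolism to low oxygen. Slc2a1, the glucose transporter GLUT1, was at 35.9 to 50.1 CPM in the controls and 35.0 to 45.0 CPM after injury, and the groups overlapped. Its log2 ratio was -0.11 (standard error 0.14), and it turned to 0.07 with library totals in place of TMM factors, a scaling that moved the median of all genes by 0.176. The direction of Slc2a1 thus depended on the scaling. Pdk1, the kinase that keeps pyruvate out of the mitochondrion, was at 27.6, 40.3, 34.4 and 33.3 CPM in controls 1 to 4 and at 21.2, 22.7, 26.6 and 21.5 CPM in injured arteries 1 to 4. The groups of Pdk1 did not overlap, although control artery 1 and injured artery 3 were near each other. Its log2 ratio was -0.56 (standard error 0.15) and stayed between -0.65 and -0.47 when each artery was left out in turn.

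Car9, a cell-surface carbonic anhydrase, had 11, 2, 4 and 1 counts in controls 1 to 4 and 28, 16, 58 and 20 counts in injured arteries 1 to 4. On the CPM scale these were 0.792, 0.164, 0.277 and 0.0695 in the controls and 1.67, 1.16, 3.26 and 1.64 after injury. All injured arteries lay above all controls, yet 2 of the controls were below the floor of 3 counts. Its log2 ratio was 2.54 (standard error 0.65), 3.44 without control artery 1 and 2.16 without injured artery 3. Skeletal muscle, cartilage and macrophage markers were also higher after injury, with 8 of 8, 5 of 5 and 8 of 8 markers higher, and their part in the Car9 values was not tested.

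Bnip3, which takes part in the removal of mitochondria and in cell death, was at 35.4, 43.3, 46.3 and 104 CPM in controls 1 to 4 and at 23.2, 20.3, 38.1 and 26.1 CPM in injured arteries 1 to 4. Injured artery 3 overlapped with control artery 1. For Bnip3 the log2 ratio was -1.09 (standard error 0.37), and -0.63 without control artery 4. Egln3, the oxygen-sensing hydroxylase that is itself induced by HIF, was at 30.8, 23.6, 23.8 and 162 CPM in controls 1 to 4 and at 12.7, 7.11, 56.7 and 8.18 CPM in injured arteries 1 to 4. Its log2 ratio of -1.50 (standard error 0.91) became -0.30 without control artery 4 and -2.69 without injured artery 3. Egln3 was the most variable of the 10 genes, with a coefficient of variation of 113% among the controls and 112% among the injured arteries.

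**Figure D2:**
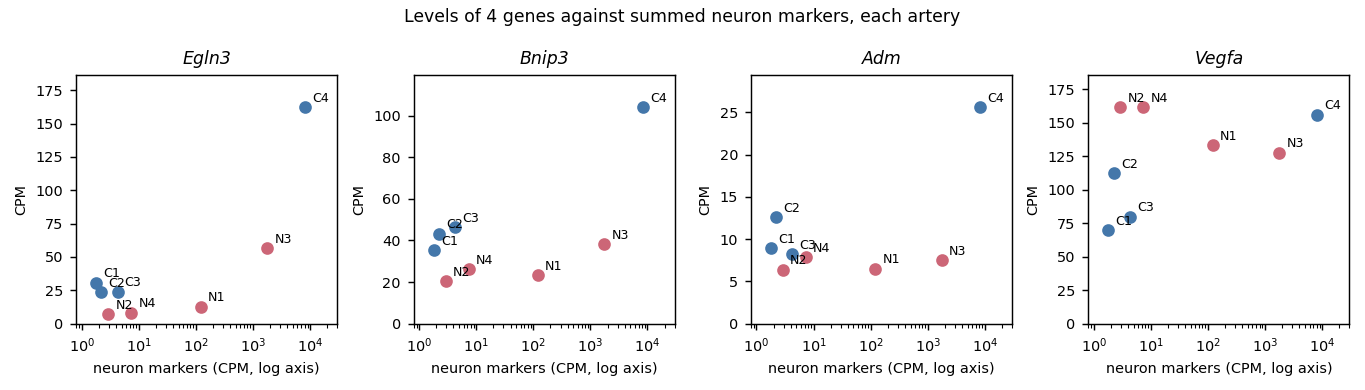
CPM of Egln3, Bnip3, Adm and Vegfa (linear axes) against the summed CPM of 7 neuron markers (log axis) in each artery, with controls C1 to C4 in blue and injured arteries N1 to N4 in red. Egln3 was highest in control artery 4 and second highest in injured artery 3, the arteries with the most neuron marker RNA. These 2 arteries lie at the far right, at 1761 and 8206 CPM.

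Neuron marker RNA moved with Egln3 in both groups. Control artery 4, with 8206 CPM of these markers, had 162 CPM of Egln3, and the other controls had 23.6 to 30.8 CPM. Injured artery 3, with 1761 CPM, had 56.7 CPM, while injured arteries 1, 2 and 4 had 7.11 to 12.7 CPM. Bnip3 was likewise highest in control artery 4 and, among the injured arteries, in injured artery 3. Without these 2 arteries, a comparison chosen after seeing the data, the groups of Egln3, Bnip3, Vegfa and Slc2a1 no longer overlapped. Leaving them out removed the highest Egln3 and Bnip3 value of each group. The share of all genes whose groups separate in that comparison was not counted, so nothing is read from the loss of overlap. In the fit without these 2 arteries the log2 ratios of Egln3 and Bnip3 were -1.48 and -0.85. That of Hif3a was -4.46 and that of Car9 1.82 in the same fit. All 10 genes kept their sign without them. The part of neuron RNA in these values was not tested.

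**Figure D3:**
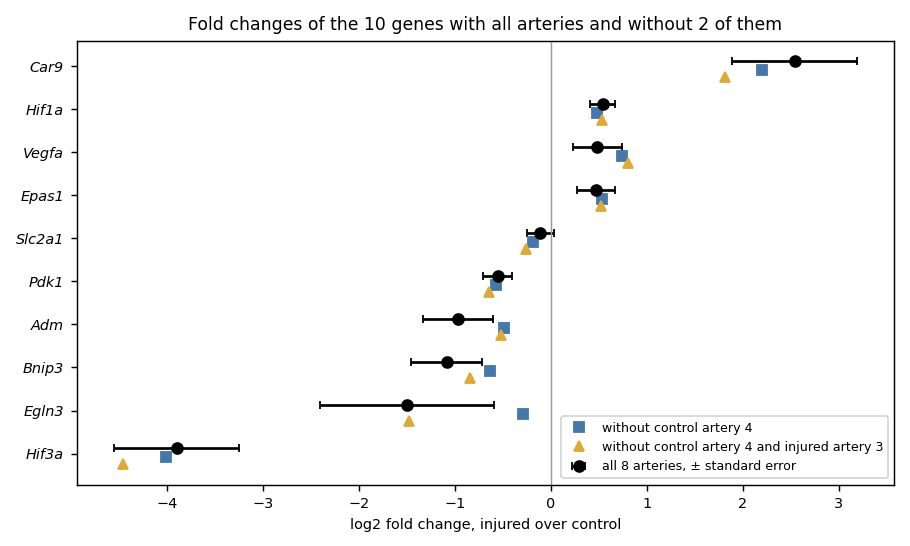
log2 ratio, injured over control, of each of the 10 genes. Circles with bars are the values with the standard error from all 8 arteries, squares leave out control artery 4, and triangles leave out control artery 4 and injured artery 3. Hif3a lies near -4 in each fit, and Egln3 moves from -1.50 to -0.30 and back to -1.48.

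In total, 4 of the 10 genes were higher and 6 were lower after injury, with a median log2 ratio of -0.33 against -0.06 over all 14359 genes tested. The criteria of the study, which it applied with DESeq, were a false discovery rate (FDR) under 0.05 with a fold change above 2. Here they were applied with edgeR and the Benjamini-Hochberg FDR. Of the 10 genes 2 were past both, Car9 among the higher and Hif3a among the lower. Car9 was past both in only 2 of the 8 fits with 1 artery left out, and not with the replicate block. With DESeq2, 3 of the 9 members tested were past both, Bnip3 among them, as were 2150 of all 16652 genes tested. Without control artery 4 and injured artery 3, 3 of the 10 were past both in edgeR, Egln3 among them, as were 2473 of all 14366 genes tested. In the background of all tested genes, 10.9% were past both criteria, 8.31% higher and 2.57% lower. Hif1a and Car9 lay above every control in all injured arteries, and Hif3a, Adm and Pdk1 below every control. The same was true of 14.2% of all genes tested in the upward and 9.51% in the downward direction. Because the set was chosen with this comparison in view, nothing is read from these counts. All 10 genes passed the filter on low counts, but Hif3a did so through the controls and Car9 through the injured arteries. Where every library had to hold 10 counts or more, these 2 genes were left out and 0 of the 8 others were past both criteria.

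The rest of the pathway was examined in 89 further genes in 8 lists, all of which were in the count table and 78 of which had enough counts for edgeR's quasi-likelihood test. Of these 78, 10 passed both criteria, 7 higher and 3 lower, which is 12.8% against 10.9% of all genes. The lists were drawn up with earlier results known, so this share and these calls are not independent of these data. Without control artery 4 the count was 16, and without injured artery 4 it was 5. The replicate block left 8. Of the 11 genes that were not tested, 7 were listed at 0 in every library, and 6 of those 7, among them Pgk1 and Pdha1, are X-linked.

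**Figure D4:**
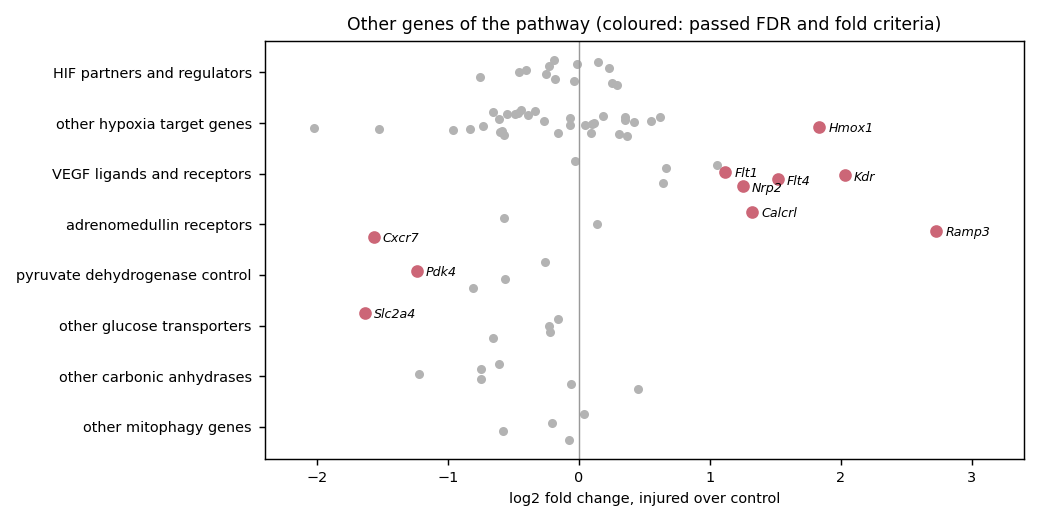
log2 ratio, injured over control, of the 78 tested genes of the pathway that were not in the set, in 8 lists. Coloured and named points passed both criteria, and grey points did not. Receptors for Vegfa lie to the right, and Cxcr7, Pdk4 and Slc2a4 to the left.

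The partners and regulators of HIF were examined next. Of these 13 genes, 0 passed both criteria in edgeR's test and 0 with DESeq2, and 1 had an unadjusted p under 0.05. That gene was Tceb1, the elongin C of the Vhl complex, at a log2 ratio of -0.76 and an edgeR FDR of 0.0261, and it is named as the single one. Its groups did not overlap, with 20.9 to 33.8 CPM in the controls and 13.2 to 16.9 CPM after injury. Ep300, a coactivator of HIF, was at 117 ± 21.3 CPM in the controls and 115 ± 9.32 CPM after injury (SD, n = 4 each), with a log2 ratio of -0.04. The list had a median log2 ratio of -0.19. Without control artery 4, 1 gene of the list passed both criteria. It was Arnt2, a relative of Arnt that is prominent in neurons, which was at 10.8, 10.2, 9.22 and 49.3 CPM in controls 1 to 4 and at 14.7, 19.8, 33.5 and 20.2 CPM in injured arteries 1 to 4. Its log2 ratio was 0.15 with all arteries and 1.13 without control artery 4 (edgeR FDR = 0.0174). In the latter fit Arnt and Egln2 had edgeR FDRs of 0.0324 and 0.0335 at log2 ratios of -0.35 and 0.36, under the fold criterion.

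Of 37 other hypoxia target genes, 33 were tested and 1 passed both criteria, which is 3.03% against 10.9% of all genes. It was Hmox1, the heme oxygenase that degrades heme, which rose from 10.7 ± 2.49 to 38.2 ± 7.64 CPM (SD, n = 4 each). Its values were 9.08, 13.0, 8.11 and 12.7 CPM in controls 1 to 4 and 30.1, 48.5, 36.3 and 38.0 CPM in injured arteries 1 to 4, with no overlap. This is a log2 ratio of 1.84 (standard error 0.22, edgeR FDR = 0.00135), and the call held in all 8 fits with 1 artery left out. The sums of the macrophage, skeletal muscle and cartilage markers given above were also higher in every injured artery than in every control. Of these markers 7 of 8, 6 of 8 and 4 of 5 were called higher, and their part in the Hmox1 values was not tested. Of the 33 genes, 20 had a negative and 13 a positive log2 ratio, with a median of -0.27. With DESeq2, 2 genes of this list passed both criteria. Without control artery 4, 2 were called higher and 3 lower, against 1817 higher and 581 lower of all 14758 genes tested in that fit.

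Kdr, Flt1, Flt4 and Nrp2, which bind VEGF ligands, rose. Of 9 VEGF ligands and receptors, 8 were tested and 4 were called, all higher, and their median log2 ratio was 1.08. Kdr, the main signaling receptor for Vegfa, was at 5.47, 18.2, 16.1 and 17.7 CPM in controls 1 to 4 and at 60.8, 49.5, 51.5 and 73.1 CPM in injured arteries 1 to 4. Its lowest injured value lay well above its highest control value. On the log2 scale the ratio was 2.03 (standard error 0.36, edgeR FDR = 0.00728). Flt4, the receptor for Vegfc, and Nrp2, its co-receptor, had log2 ratios of 1.52 and 1.25 (edgeR FDR = 0.00356 and 0.0115). Flt1, which binds Vegfa and can act as a decoy, had 1.12 (edgeR FDR = 0.0157) and was no longer called without control artery 1 or without injured artery 4. Nrp1, the relative of Nrp2, passed the FDR with an edgeR FDR of 0.0283 but had a log2 ratio of 0.64, under the fold criterion. The general markers of endothelium went in different directions, with Cdh5 and Emcn at log2 ratios of 1.06 and 1.43 and Vwf at -1.65. The part of cell composition in the receptor values was not tested.

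The receptors for Adm changed in both directions. Calcrl, which forms the adrenomedullin receptor together with a Ramp protein, rose to 27.9 to 56.8 CPM after injury, where no control exceeded 24.5 CPM, a log2 ratio of 1.32 (standard error 0.30, edgeR FDR = 0.0188). With the replicate block the FDR of Calcrl was 0.0669, and with 1 artery left out the call held in 3 of 8 fits. Its partner Ramp3 was at 0.216, 0.820, 0.277 and 2.22 CPM in controls 1 to 4 and at 3.83, 6.46, 7.08 and 6.30 CPM in injured arteries 1 to 4. The groups of Ramp3 did not overlap, its log2 ratio was 2.73 (edgeR FDR = 0.0290), and its call held in 2 of those 8 fits. Without control artery 4 the log2 ratio of Ramp3 was 3.75. Ramp2, the other adrenomedullin partner, was at 31.5 to 55.3 CPM in the controls and 44.4 to 47.1 CPM after injury, with a log2 ratio of 0.14. Cxcr7, now named Ackr3, a receptor that also binds adrenomedullin without a G protein signal, fell from 165 ± 64.9 to 55.5 ± 8.58 CPM (SD, n = 4 each). The log2 ratio of Cxcr7 was -1.57 (edgeR FDR = 0.0127), and the FDR was 0.0540 under the replicate block. Control artery 4 had 73.5 CPM of Cxcr7, near the injured range of 49.1 to 67.7 CPM.

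**Figure D5:**
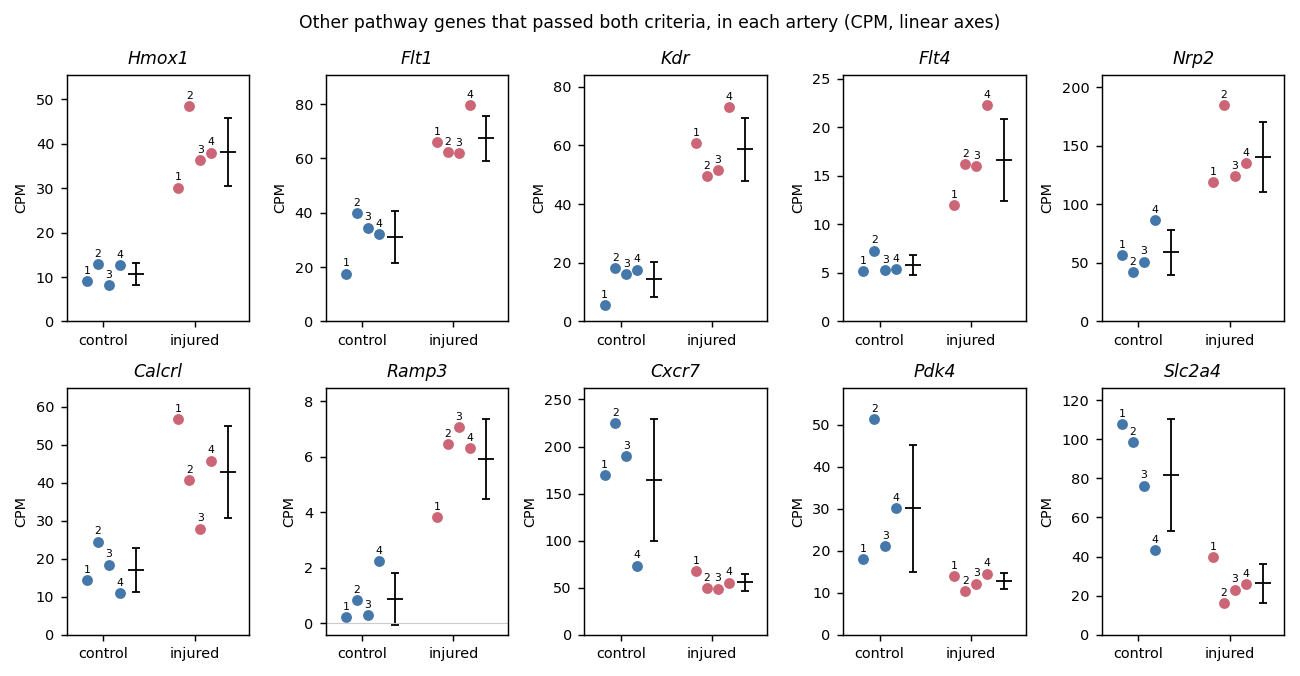
CPM of the 10 pathway genes outside the set that passed both criteria, on linear axes, with control arteries in blue and injured arteries in red. Numbers are replicate numbers, and the bar at the right of each group is the mean with the SD of 4 arteries. The groups do not overlap for any of the 10 genes, and control artery 4 is the lowest control for Cxcr7 and Slc2a4.

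Pdk4 and Slc2a4, relatives of Pdk1 and Slc2a1, fell. Pdk4, a kinase of the same family that is induced in fasting, was at 17.9, 51.3, 21.0 and 30.2 CPM in controls 1 to 4 and at 13.9, 10.4, 12.2 and 14.6 CPM in injured arteries 1 to 4. All injured arteries lay below all controls, at a log2 ratio of -1.24 (standard error 0.33, edgeR FDR = 0.0368). With the replicate block the FDR was 0.116, and with 1 artery left out the call held in 3 of 8 fits. Pdp1 and Pdp2, the phosphatases that oppose these kinases, had edgeR FDRs of 0.0325 and 0.0283, but with log2 ratios of -0.56 and -0.81 they did not reach the fold criterion, and they were picked out with their values known. Pdk2, another kinase of the family, had a log2 ratio of -0.26 and was not called. The kinases and the phosphatases of pyruvate dehydrogenase thus lay on the same side of 0, with 4 of 4 tested genes lower. The adipocyte markers summed to 127, 1039, 394 and 969 CPM in controls 1 to 4, the same order as Pdk4. In the injured arteries the orders differed, and the adipocyte sums of the groups overlapped. Smooth muscle marker sums were lower in every injured artery than in every control. The part of either cell type in the Pdk4, Pdp1 and Pdp2 values was not tested.

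Slc2a4, the insulin-regulated transporter GLUT4 of muscle and fat, was at 108, 98.3, 76.2 and 43.4 CPM in controls 1 to 4 and at 39.7, 16.2, 23.0 and 26.0 CPM in injured arteries 1 to 4. That is a log2 ratio of -1.63 (standard error 0.35, edgeR FDR = 0.0157), and only the fit without injured artery 4 lost the call. The smooth muscle marker sums fell from control 1 to control 4 in the same order as Slc2a4, and every injured sum lay below every control. In the injured arteries the orders differed. Skeletal muscle markers went the other way, with 8 of 8 higher after injury, and adipocyte sums overlapped. The part of these cell types in the Slc2a4 values was not tested. Whether Slc2a4 and Slc2a1 differed in their change was not tested either. Of 6 other carbonic anhydrases tested, 0 passed both criteria with edgeR or DESeq2, and 1 had an unadjusted p under 0.05. Car3, a carbonic anhydrase of muscle and fat, was at 58.9 to 286 CPM in the controls and 26.0 to 150 CPM after injury. Of 4 other mitophagy genes tested, 0 passed both criteria with edgeR or DESeq2 and 0 had an unadjusted p under 0.05. Phb2, a mitophagy receptor of the inner membrane, had a log2 ratio of -0.07.

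The genes whose variation among the arteries of a group was most like that of Hif3a were Exosc5, Pllp, Dalrd3, Sec14l1 and Aup1. Likeness was the correlation of log2 CPM deviations from the group means over 8 arteries, among 12899 genes, and it was 0.993 for Exosc5 and 0.962 for Aup1. The 0 counts of Hif3a in injured artery 2 weigh heavily in this measure. These 5 are the highest of 12899 correlations over only 8 arteries. How high the top values run by chance was not tested, so no shared regulation is read from them. None of the 5 was called, with log2 ratios from -0.04 to 0.43, so they did not share the difference between the groups. Among the other 9 genes of the set, the highest correlation with Hif3a was 0.51, that of Epas1, and Car9 was too low in counts to be compared.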

How the data were processed

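mRNA sequencing of 4 injured and 4 control carotid arteries was analysed. The authors deposited raw counts per gene symbol without normalization. The submitters' processing notes name HISAT2 2.0.4, while the counting tool, genome build and strand setting are not given in the sources used here, so overlapping genes and genes with near-identical copies are uncertain. After filterByExpr, which left 14359 of 37209 genes, the quasi-likelihood test of edgeR 4.0.16 (R 4.3.3) compared the groups after TMM scaling without a covariate. Benjamini-Hochberg adjustment covered all genes tested, and a gene was called where its FDR was under 0.05 and its fold above 2, the criteria of the study. Standard errors came from the F statistic. Correlations were computed on log2 CPM (prior count 2) over genes with an average above 1.

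The members and lists were chosen with earlier results of these data known. Of 89 pathway genes, 83 matched by symbol and 6 by a RefSeq synonym. Named genes are the 10 members, every called pathway gene, the gene with the highest mean CPM in each list (Ep300, Nrp1, Cxcr7, Pdk2, Slc2a4, Car3 and Phb2, with 1 not reported here), a choice by read number and not by level per length, and the 5 genes most like Hif3a. Tceb1, Arnt, Arnt2, Egln2, Ramp2, Pdp1, Pdp2, Ldha, Eno1, Cxcr4 and Slc2a6 were named after their values were seen. Chromosomes and promoter windows are those of RefSeq for GRCr8 and were not used in counting. Levels between members were not compared, because the gene table gives genomic spans only. The right artery was the self-control, but the labels tie no replicate number to a rat and do not say how many rats were used, so the arteries were fitted as unpaired and p-values measure the spread between them. The analysis was repeated with DESeq2 1.42.0, other scaling (RLE, upper quartile, library totals), other filters (none, or 10 counts or more in each library), the FDR alone, a replicate block, and each artery left out. The code was tested on simulated data.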

Additional observations from a re-analysis of the deposited data

Results flagged for a closer look

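Groups of 4 arteries were examined for the 10 genes, the called pathway genes and the genes most like Hif3a, 50 groups in all. In 5 of them the gap of 1 artery to its nearest neighbour, as a share of the group's range, was large. It exceeded the critical value of Dixon's test for 4 samples. Chance gives about 2.5 for independent groups with normal values. These genes were picked in part on these data, so 5 is not read as an excess. For Egln3 the share was 0.949 in the controls, where control artery 4 had 162 CPM and the next 30.8 CPM, and 0.888 in the injured arteries, where injured artery 3 had 56.7 CPM and the next 12.7 CPM. For Bnip3 it was 0.842, with 104 CPM in control artery 4 and 46.3 CPM in the next. For Kdr it was 0.838, with 5.47 CPM in control artery 1 and 16.1 CPM in the next, and for Flt4 it was 0.889, with 7.30 CPM in control artery 2 and 5.42 CPM in the next.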

How the results depend on the processing

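The number of genes called, 1562 (1193 higher, 369 lower), was 1007 (715 higher) where every library had to hold 10 counts or more, and 2468 (918 lower) with the FDR alone. Leaving out 1 artery gave 1142 to 2398 (945 to 1817 higher, 197 to 581 lower), the highest without control artery 4. For the other pathway genes, 10 (7 higher, 3 lower), this range was 5 to 16 (4 to 10 higher, 1 to 6 lower), the lowest without injured artery 4, and 6 were lower with the FDR alone. Without control artery 4 and injured artery 3 together, chosen after seeing the data, 2473 genes were called (1800 higher, 673 lower), and 5 pathway genes were lower. Of the 5 genes most like Hif3a, 2 remained among the 5 without control artery 4. With the replicate block 234 genes were lower, and 7 of the 10 pathway calls were shared. Deviations of same-numbered arteries correlated at 0.301, 0.45, -0.52 and -0.416, and 3 of 8 arteries correlated best with their own number. Because control artery 4 and injured artery 3 stand apart, these values cannot show whether equal numbers are pairs. The numbers were not taken as pairs because the labels do not tie them to rats. Every call among the 10 pathway genes kept its direction in each alternative that tested it, with 136 gene and setting pairs still called and 23 not. Why the counts moved was not tested. Low counts limit Hif3a after injury and Car9 in the controls.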

Other observations

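Control artery 4 held the highest value of all 8 arteries in 26 of the 78 tested pathway genes and in 4173 of all 14359 genes. Among glycolytic enzymes, Ldha was at 452 CPM there and at 140 to 179 CPM in the other controls, and Eno1 was at 410 CPM there and at 124 to 170 CPM in the others. Cxcr4, a chemokine receptor, was at 75.5 CPM in control artery 4, at 0.792 to 3.05 CPM in the other controls and at 14.6 to 23.6 CPM after injury. Its log2 ratio of injured to control arteries was -0.16 with all arteries and 3.02 without control artery 4 (edgeR FDR = 0.00219). Slc2a6, a lysosomal hexose transporter, was likewise at 45.2 CPM in control artery 4, at 0.246 to 0.970 CPM in the other controls and at 3.41 to 22.6 CPM after injury, with log2 ratios of -0.16 and 4.15 (edgeR FDR = 0.00670 without control artery 4). These genes were picked out with their values known, and the part of neuron RNA in them was not tested.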
